A study of Mus musculus with 11 samples.

Results

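Dopaminergic (DA) and serotonergic (5-HT) neurons build their transmitters with a shared set of enzymes. The 8 genes described here are Ddc, Slc18a2, Gch1, Pts, Spr, Qdpr, Maoa and Maob, out of 22380 protein-coding genes of the GENCODE M1 annotation of the mouse mm9 genome. Open chromatin was examined over each gene body extended by 20 kb on each side, which held 60 of the 131942 regions listed for the series. Of these 60 regions, 13 overlapped a promoter of the member gene itself, 4 overlapped a promoter of a neighbouring gene, and 43 were distal to any annotated promoter. A promoter was the stretch from 1 kb upstream to 100 bp downstream of any annotated transcription start site (TSS).

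Aromatic amino acid decarboxylase, encoded by Ddc, removes the carboxyl group from L-DOPA and from 5-hydroxytryptophan and so makes dopamine and serotonin. The hydroxylases that act before it need tetrahydrobiopterin, which is made by the products of Gch1, Pts and Spr and regenerated by that of Qdpr. The vesicular transporter of Slc18a2 (VMAT2) loads both transmitters into vesicles, and the monoamine oxidases of Maoa and Maob, neighbours on the X chromosome, break them down in mitochondria.

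ATAC-seq, in which a transposase cuts accessible DNA, was analysed in 3 DA and 2 5-HT libraries from embryos at day 14.5. DA neurons were GFP-positive cells sorted from the ventral mesencephalon of TH-GFP mice, a line kept on C57BL/6J in which a Th promoter drives GFP. 5-HT neurons were YFP-positive cells sorted from the anterior hindbrain of Mash1-CRE x ROSA YFP mice, so that YFP marks cells in which the proneural gene Mash1 has been active. The embryos came from transgenic males and Swiss wild-type mothers, tissue of several embryos was pooled for each sort, and no treatment was given. Each library carries 1 score per region, and a score of 0 means that no peak was called. What the score measures is not stated in the sources used here, and read depth is unknown.

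The libraries differed in how many of the 131942 regions held a peak. DA 1, DA 2 and DA 3 had 52861, 93055 and 94351 peaks, and 5-HT 1 and 5-HT 2 had 38772 and 22879. All DA libraries had more peaks than either 5-HT library, so the absence of a peak in 5-HT cannot be told apart from the lower number of peaks there. Fewer cells were also sorted for each 5-HT library than for any DA library, so that cell number goes with the group and cannot be told apart from it. For this reason each score is also given as a percentile, the percent of all regions with a lower score in the same library, with 0 where there was no peak. The lowest percentile that a peak can have follows from the number of peaks and was 59.9, 29.5 and 28.5 in DA 1, DA 2 and DA 3 and 70.6 and 82.7 in 5-HT 1 and 5-HT 2, so that a DA percentile under 82.7 lies below that of any peak in 5-HT 2. In sorted cells, fewer cells with an open region and less opening per cell cannot be told apart.

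The labels were checked against marker promoters. All 7 DA markers (Th, Slc6a3, Nr4a2, Pitx3, Lmx1a, En1 and Foxa2) had a promoter peak in the 3 DA libraries, and 5 and 4 of them had a peak in 5-HT 1 and 5-HT 2. The Th promoter had scores of 9.91, 10.6 and 8.45 in DA 1, DA 2 and DA 3 and 0 in both 5-HT libraries. As a list, the 6 5-HT markers did not set the 5-HT libraries apart. The Tph2 promoter had a peak in all 5 libraries, with scores of 9.91, 7.59, 11.1, 7.09 and 3.59 in DA 1, DA 2, DA 3, 5-HT 1 and 5-HT 2. Slc6a4 had a promoter peak in each DA library but not in 5-HT, Fev only in 5-HT 1, Gata2 in DA 2 and 5-HT 1, and Lmx1b in the 3 DA libraries and 5-HT 1. Gata3 had a peak in all 5 libraries and a higher percentile in both 5-HT libraries (89.7 and 99.2) than in the DA libraries (65.8 to 89.4). The 5-HT markers with a promoter peak numbered 4, 5, 4, 5 and 2 of 6 in DA 1, DA 2, DA 3, 5-HT 1 and 5-HT 2, with summed scores of 27.7, 29.4, 25.5, 24.7 and 11.1. Of 3 GABA markers, Gad1 and Gad2 had peaks in all 5 libraries and Slc32a1 had peaks in DA only. Their summed scores were 14.9, 13.9, 12.9, 9.57 and 6.60. Percentiles of Gad1 were 77.8, 65.0 and 65.9 in DA and 86.3 and 87.0 in 5-HT. Those of Gad2 were 79.3, 68.1 and 74.4 in DA and 88.8 and 89.1 in 5-HT. Slc32a1 stood at 79.6, 68.6 and 62.7 in DA and at 0 in 5-HT. Every DA percentile of Gad1 and Gad2 lay under 82.7 and so below that of any peak in 5-HT 2. The scores of Gad1 were 4.84, 4.45 and 4.12 in DA and 4.60 and 3.19 in 5-HT. Those of Gad2 were 5.03, 4.71 and 4.82 in DA and 4.96 and 3.41 in 5-HT. The 4 glial markers (Gfap, Aqp4, Olig1 and Olig2) had 2, 4, 4, 3 and 2 promoter peaks with summed scores of 14.7, 23.4, 22.5, 16.1 and 7.85, and the highest single score was that of Gfap in DA 2 (8.76). By percentile, Gfap stood at 89.1, 90.2 and 88.9 in DA 1, DA 2 and DA 3, at 96.0 in 5-HT 1 and at 0 in 5-HT 2. Olig2 scored 0, 4.36 and 4.42 in DA and 4.73 and 4.27 in 5-HT. Its percentiles were 0, 63.6 and 70.1 in DA and 87.2 and 94.4 in 5-HT, higher in both 5-HT libraries. Every DA value lay under 70.6 and so below that of any peak in either 5-HT library, so this order follows from the peak numbers. Olig1 overlapped, with 92.0, 81.3 and 88.7 in DA and 85.2 and 90.5 in 5-HT. Aqp4 had a peak in DA 2 and DA 3 only. Of the 2 glutamate markers, Slc17a7 had no region, and Slc17a6 scored 9.97, 12.9 and 12.8 in DA, above the Th promoter in each DA library, and 3.65 and 0 in 5-HT. Its percentiles were 96.3, 96.7 and 97.9 in DA and 76.6 and 0 in 5-HT. Noradrenergic and vascular markers had at most 1 and 2 peaks of 3 in a library, with summed scores of at most 3.21 and 9.14 and with Dbh and Pecam1 at 0, and the microglial markers Aif1 and Cx3cr1 had none. What these cells contribute to the values below was not tested.

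Most promoters of the 8 genes had a peak in both cell types. A promoter region with a peak in all 5 libraries was found for 6 of 8 genes, namely Ddc, Gch1, Pts, Spr, Qdpr and Maoa, against 48.3% of all protein-coding genes. All 8 members have a promoter region, and among the 14559 genes that have one the share was 74.3%, so that the members stood at the background. Slc18a2 had a promoter peak in the 3 DA libraries and 5-HT 2. For a gene with several promoter regions, the one with a peak in the most libraries was used, for members and for these shares. By that region, Maob alone had a promoter peak in each DA library and none in 5-HT. This pattern was held by 2.05% of all genes and 3.15% of those with a promoter region. A further promoter region of Ddc, described below, also had it. When the 22879 highest-scoring regions of each library were compared, so that every library had the same number of peaks, 5 of 8 genes kept a promoter peak in all 5 libraries, all but Ddc of the 6 above, against 58.3% of genes with a promoter region. With a score minimum of 5, only Qdpr kept one (1 of 8, against 25.8%).

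**Figure D1:**
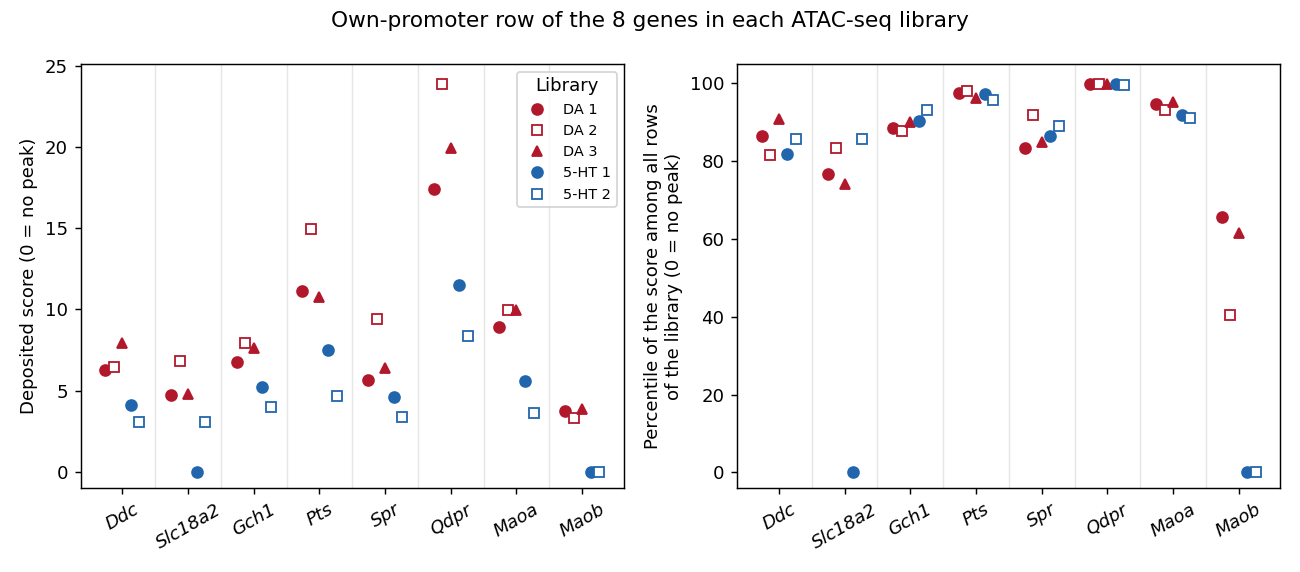
The promoter region of each of the 8 genes in each library, as the deposited score (left) and as the percentile of that score among all regions of the library (right). Red symbols are the 3 DA and blue symbols the 2 5-HT libraries, and 0 means no peak. For every gene the DA scores lie above the 5-HT scores. The percentiles of Ddc, Slc18a2, Pts, Spr and Qdpr overlap between the groups.

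Ddc, at the step common to both transmitters, lies on the minus strand of chromosome 11 (11714104 to 11798047). Its promoter region, chr11:11788049-11790970, covered the coding TSSs at 11790404 and 11790372, inside the annotated gene body. The scores were 6.27, 6.46 and 7.91 in DA 1, DA 2 and DA 3 and 4.09 and 3.08 in 5-HT 1 and 5-HT 2. Scores were lower in both 5-HT libraries, but the percentiles, 86.4, 81.4 and 90.9 in DA and 81.7 and 85.6 in 5-HT, overlapped. Because 5-HT 2 held a peak and DA 2 lay under 82.7, the DA percentiles could not all lie above both 5-HT percentiles. The most upstream coding TSS of Ddc, at 11798047, lay in no listed region. Of the 4 other regions at TSSs of Ddc, which belong to non-coding transcripts, chr11:11736323-11737174 was open in the 3 DA libraries only (5.17, 4.07 and 4.21). The region chr11:11721629-11723129 scored 3.76, 4.48 and 4.00 in DA and 5.67 in 5-HT 1, and had no peak in 5-HT 2. The remaining regions, chr11:11764890-11765517 and chr11:11780867-11781068, each had a peak in 1 library, DA 3 and 5-HT 1.

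Among the cofactor genes, Gch1 encodes GTP cyclohydrolase 1, the first and rate-limiting enzyme of tetrahydrobiopterin synthesis. Its promoter region, chr14:47808484-47809446, scored 6.76, 7.91 and 7.62 in DA 1, DA 2 and DA 3 and 5.24 and 3.96 in 5-HT 1 and 5-HT 2. The percentiles were 88.5, 87.6 and 89.9 in DA and 90.3 and 93.0 in 5-HT. Gch1 was the only member whose percentile was higher in both 5-HT libraries than in every DA library, as it was for 11.0% of all genes and 16.9% of those with a promoter region. Among the 8461 genes whose promoter region was in the 22879 highest-scoring regions of each library, 5 of them members, this share was 13.1%, and the direction was opposite to that of the raw scores. Pts encodes the enzyme of the next step, 6-pyruvoyltetrahydropterin synthase. Its promoter region, chr9:50336117-50337053, scored 11.1, 14.9 and 10.8 in DA and 7.50 and 4.65 in 5-HT, at percentiles of 97.5, 98.0 and 96.2 and of 97.1 and 95.7. These percentiles were high in every library and overlapped.

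Spr encodes sepiapterin reductase, which completes the synthesis. Its promoter region, chr6:85087170-85088019, scored 5.67, 9.41 and 6.37 in DA 1, DA 2 and DA 3 and 4.62 and 3.38 in 5-HT 1 and 5-HT 2. The percentiles, 83.4, 91.8 and 84.8 in DA and 86.3 and 88.9 in 5-HT, overlapped, with both 5-HT values inside the DA range. Qdpr encodes dihydropteridine reductase, which recycles the cofactor. Its promoter region, chr5:45840706-45842075, had the highest scores of the 8 promoters in every library, 17.4, 23.9 and 19.9 in DA and 11.5 and 8.33 in 5-HT. Its percentiles lay between 99.5 and 99.8 in all 5 libraries and overlapped. A second region of Qdpr at a promoter, chr5:45840350-45840593, had a peak in DA 2 only (3.44).

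The storage gene Slc18a2 starts on the plus strand of chromosome 19 at 59335368, with a second start at 59335453. The promoter region chr19:59334818-59336014 covered both and scored 4.71, 6.85 and 4.78 in DA 1, DA 2 and DA 3, 0 in 5-HT 1 and 3.08 in 5-HT 2. The percentiles were 76.7, 83.4 and 74.0 in DA and 0 and 85.7 in 5-HT. The 5-HT 2 score lay below every DA score and below the median score of all peaks in its library (3.69), and the 5-HT libraries differ by the presence of a call. The mean percentile of 42.8 ± 60.6 in 5-HT (SD, n = 2) therefore describes neither library.

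The breakdown genes Maoa and Maob lie next to each other on the X chromosome. Maoa, whose enzyme prefers serotonin and noradrenaline, starts at 16196824, and its promoter region chrX:16195072-16197310 scored 8.93, 9.97 and 9.96 in DA 1, DA 2 and DA 3 and 5.59 and 3.65 in 5-HT 1 and 5-HT 2. The percentiles were 94.6, 93.0 and 95.2 in DA and 91.9 and 91.0 in 5-HT, all high, with every DA value above both 5-HT values. Maob starts at 16394492 on the minus strand. Its promoter region chrX:16394300-16394808 scored 3.72, 3.31 and 3.86 in DA and 0 in both 5-HT libraries, at percentiles of 65.6, 40.4 and 61.5 in DA. These were the lowest DA scores of the 8 promoters, below the median score of all peaks in each of these libraries (5.12, 4.44 and 4.01), and no library kept the Maob promoter among its 22879 highest-scoring regions. Maoa and Maob were the 2 of 8 members with every DA percentile above both 5-HT percentiles, a pattern held by 9.53% of all genes and 14.7% of those with a promoter region. For Maob this follows from the missing calls in 5-HT. Among the 8461 genes above, the share was 16.9%, and of the 5 members there only Maoa showed it.

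The difference in percentile between the groups was tested for each of the 8 genes with a two-sided exact permutation test over the 5 libraries. With 3 against 2 libraries the smallest p it can give is 0.2, so no gene could pass 0.05. The exact p was 0.2 for Gch1, Maoa and Maob, with a Benjamini-Hochberg adjusted p of 0.533, and between 0.4 and 0.8 for the other genes. The mean percentile in DA minus that in 5-HT was -2.95 for Gch1, 2.81 for Maoa and 55.8 for Maob.

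The scores themselves were compared with limma on quantile-normalised log2 scores, over the 16856 regions with a peak in all 5 libraries. Of these regions, 62 (0.368%) were higher in DA and 115 (0.682%) were higher in 5-HT at an adjusted p below 0.05. These counts were not stable, with 416 and 1298 under median centring. With any 1 DA library left out, 0 were higher in DA and 0 to 2 in 5-HT. Among the 16856 regions, the member regions tested numbered 11, and limma called 0 of them, with 1 at an unadjusted p below 0.05. At that level, 1440 of the 16856 regions were higher in DA and 1513 higher in 5-HT, so 1 of 11 is not above the background. The member region was the Ddc promoter region, higher in DA by 0.40 on the log2 scale (SE 0.17, limma adjusted p = 0.251). Its size depended on the scaling, and with median centring it was 0.14 (SE 0.18, limma adjusted p = 0.646). The one member region at an unadjusted p below 0.05 was then the distal chr11:11755072-11756255 of Ddc, higher in 5-HT (log2 difference -0.52, SE 0.17, limma adjusted p = 0.0629). Over all regions, 1612 were then higher in DA and 2951 higher in 5-HT at that unadjusted p. The raw scores of this distal region, 3.73, 4.17 and 4.31 in DA and 3.60 and 3.11 in 5-HT, go the opposite way. The median difference over the 11 member regions was 0.12, against 0.01 over all regions tested. Without 5-HT 2, the median over the 17 member regions then tested was -0.02, so that its sign was not stable, and limma called 2 of them, both in Ddc, chr11:11784264-11785712 as higher in DA (log2 difference 1.14, SE 0.18, limma adjusted p = 0.00536) and chr11:11721629-11723129 as higher in 5-HT 1 (log2 difference -0.95, SE 0.18, limma adjusted p = 0.0108). These are 1 of 17 in each direction, against 3.63% of all regions called higher in DA and 4.06% higher in 5-HT 1, near the background for so few regions.

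Away from promoters, a peak in all 3 DA libraries was found in 13 of the 43 distal member regions, against 30.0% of the 68734 distal regions within 20 kb of any protein-coding gene. Of these 13 regions, 3 had a peak in both 5-HT libraries, 3 in 1 of them, and 7 (53.8%, 95% Wilson interval 29.1 to 76.8%, for counting error only) in neither. The share without a 5-HT peak was 51.3% for all distal regions open in the 3 DA libraries, so that the members stood near the background. Opening in 5-HT 1 and 5-HT 2 but in no DA library was found in 0 of the 43 regions, against 0.463% of all distal regions. Distal member regions with a peak made up 37.2%, 83.7% and 62.8% of the 43 in DA 1, DA 2 and DA 3 and 30.2% and 9.30% in 5-HT 1 and 5-HT 2, against 36.1%, 72.0%, 66.3%, 23.5% and 11.4% of all distal regions. At the same number of peaks in every library, 6 distal member regions were open in the 3 DA libraries and 4 of them in neither 5-HT library, against 31.9% of all such regions, a higher share that rests on 6 regions. DA 1 had the fewest peaks of the DA libraries, and without it the regions open in every DA library rose from 13 to 23 and those without a 5-HT peak from 7 to 14. At least 1 distal region open in the 3 DA libraries only lay near 5 of 8 genes (Ddc, Slc18a2, Gch1, Spr and Qdpr), against 32.9% of all genes, and at the same number of peaks near 3 of 8 (Ddc, Gch1 and Qdpr), against 9.75%. These shares are over all genes and are not matched to the members for window length or for having a promoter region. No enrichment can therefore be read from these counts of genes.

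The window of Ddc held 29 of the 60 regions, 22 of them distal. This is 17.8 distal regions per 100 kb, a density above that of 98.9% of protein-coding genes, whose median was 3.42. The distal region of Ddc with the highest lowest score over the 5 libraries was the intronic chr11:11719991-11720715, with 6.94, 8.65 and 11.0 in DA 1, DA 2 and DA 3 and 7.36 and 4.48 in 5-HT 1 and 5-HT 2. It was open throughout, and its percentiles overlapped between the groups. The region open in DA only with the highest lowest DA score was the intronic chr11:11778722-11779941, with 5.98, 7.81 and 6.90 in DA and 0 in both 5-HT libraries. A region picked after its values were seen, the intronic chr11:11784264-11785712, had the highest DA scores of the distal member regions, 11.3, 12.5 and 11.3, with 4.04 in 5-HT 1 and 0 in 5-HT 2. It lay 5384 bp downstream of the coding TSS nearest to it. A further 8 of the 22 distal regions had a peak in 1 library only, against 46.5% of all distal regions.

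**Figure D2:**
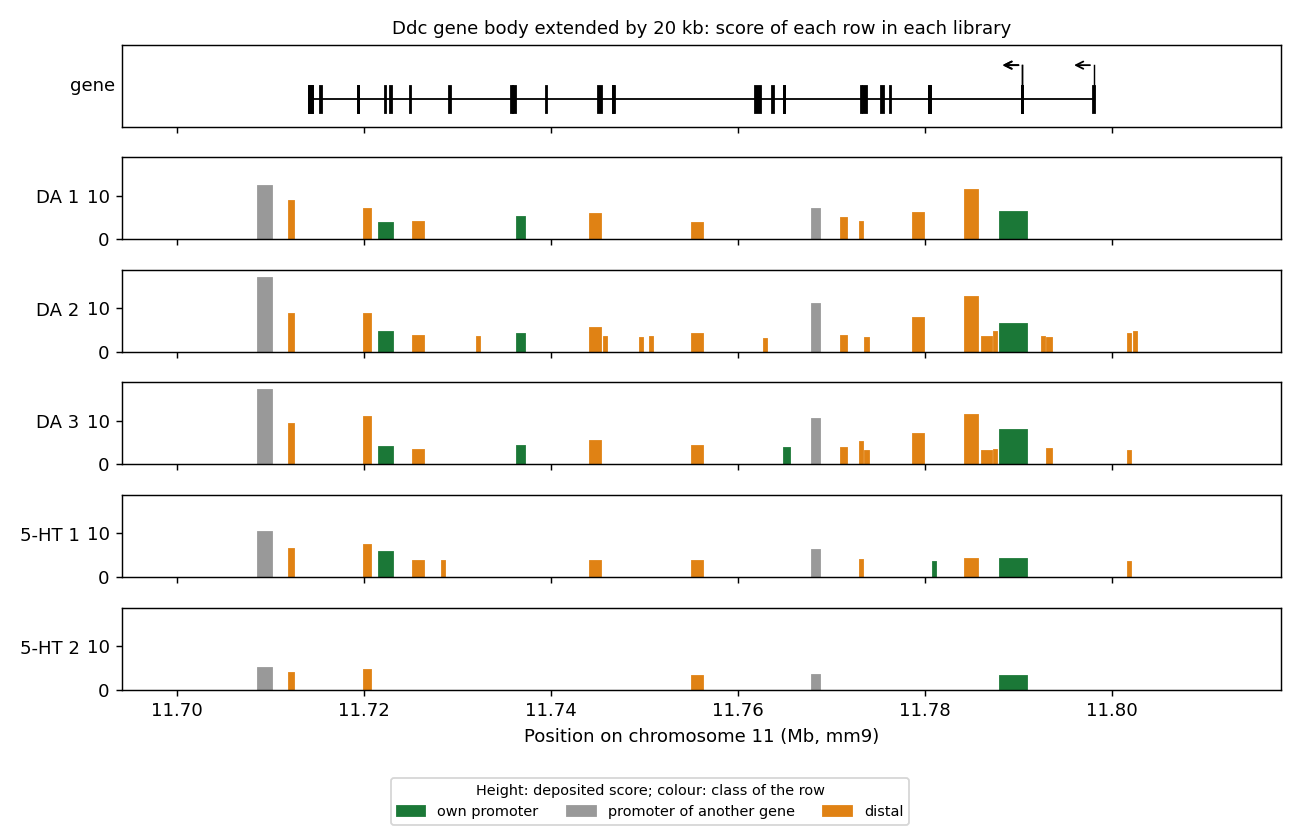
Regions over the Ddc gene body and 20 kb on each side on chromosome 11 (mm9), with 1 track per library, the deposited score as the height, exons of all transcripts as black boxes and coding TSSs as arrows; the narrowest regions and exons are drawn wider than to scale. DA libraries show a peak at the intronic region at 11784264 with scores of 11.3 to 12.5, against 4.04 in 5-HT 1 and no peak in 5-HT 2.

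Distal regions of the cofactor genes were fewer. Upstream of Gch1, chr14:47823578-47824725 lay 15063 bp from the TSS and scored 6.17, 8.36 and 6.35 in DA 1, DA 2 and DA 3 and 0 in both 5-HT libraries. The region was among the 22879 highest-scoring regions of each DA library. On the other side of Gch1, chr14:47753669-47754182, named after its values were seen, had a peak in 5-HT 1 (3.74) and 5-HT 2 (3.42) and scored 0, 3.43 and 3.59 in DA, the only distal member region open in all of 5-HT that lacked a peak in a DA library. Downstream of Qdpr, chr5:45815437-45815942 scored 6.93, 7.23 and 6.93 in DA and 0 in 5-HT, the smallest spread among DA libraries of the regions open in DA only that are named here. Downstream of Spr, chr6:85082786-85083034 scored 4.23, 3.93 and 4.37 in DA and 0 in 5-HT. This region has a copy with 97.2% identity at chr6:85109248-85109496, beside the processed gene copy Spr-ps1, and it was the only one of the 60 member regions with a match elsewhere in the genome at 95% identity over 90% of its length. How reads were shared between these copies was not tested. Over 609 aligned bases the transcripts of Spr and Spr-ps1 were 89.8% identical. Pts had no distal region, as had 26.3% of genes with a window of like length.

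The 5 distal regions of Slc18a2 all lay inside the gene, and none had a peak in a 5-HT library, as was the case for 73.0% of all distal regions. The intronic chr19:59341593-59342560 scored 4.78, 7.06 and 6.77 in DA 1, DA 2 and DA 3, and chr19:59346776-59348004, centred on an exon, scored 5.34, 4.64 and 5.45. Both were open in the 3 DA libraries only. The other 3 regions had peaks in DA 2, or in DA 2 and DA 3, with scores between 3.23 and 3.60. Of all peaks in the window of Slc18a2, 5-HT 1 had 0 and 5-HT 2 had 1, the promoter.

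**Figure D3:**
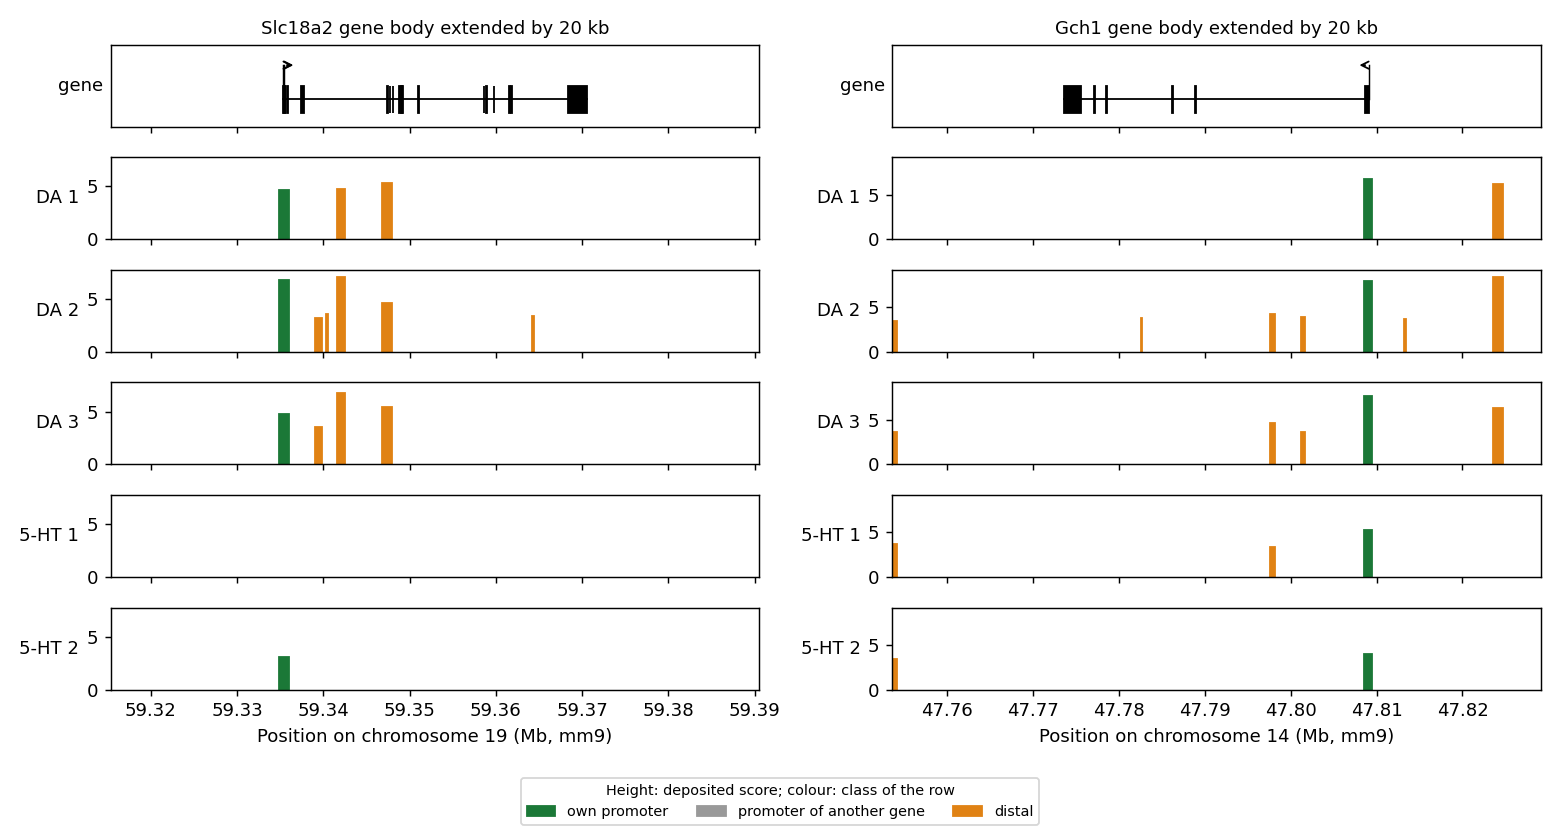
Regions over Slc18a2 (left, chromosome 19) and Gch1 (right, chromosome 14) with 20 kb on each side (mm9), drawn with 1 track per library and the deposited score as the height; the narrowest regions and exons are drawn wider than to scale. In the 5-HT libraries the window of Slc18a2 holds a single peak, at the promoter in 5-HT 2 (3.08), while the Gch1 promoter has a peak in every library.

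Of the breakdown genes, Maoa had no distal region, as had 9.18% of genes with a window of like length and 25.8% of such genes on the X chromosome. Maob had 5 distal regions in a window of 148085 bp, or 3.38 per 100 kb, close to the median of all genes (3.42) and above that of genes on the X chromosome (1.70). Each had a peak in a single library, against the 46.5% given above, 1 in DA 1, 1 in DA 2, 2 in DA 3 and 1 in 5-HT 1, with scores between 3.03 and 4.20.

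The promoters reported here differed in base composition. In the central 300 bp of the region, the GC content was 72.3% for Gch1, 69.7% for Spr, 68.3% for Pts, 67.0% for Qdpr and 57.0% for Maoa, and 68.3% for Slc18a2, against a median of 66.0% over promoter regions with a peak in all 5 libraries. The Ddc promoter region had 46.3% GC and an observed-to-expected CpG ratio of 0.12, against a median ratio of 0.825. It stood closer to the median of distal regions (48.3% GC and 0.23), although its centre lay 863 bp inside the transcript because the region is 2922 bp long. The 220 bp at its TSS, printed below, had 55.0% GC and a ratio of 0.241.

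The following promoter sequences are shown, Ddc as the gene of the step common to both transmitters, Slc18a2 for its missing peak in 5-HT 1, Maoa for a peak in every library with higher percentiles in DA, and Qdpr for its highest scores. Each runs 5′ to 3′ on the strand of the gene from 200 bp upstream of the TSS over the first 20 transcribed bases, read from mm9. Capitals mark words searched on both strands. These are the cAMP response element TGACGTCA, the E-box word CAGCTG, the word CCGGAAG of ETS factors, the word AAGGTCA of NR4A receptors, the word TAATCC of PITX and OTX factors, the word TGTTTAC of FOXA factors, the word TAATTA of homeodomain factors, the word AGATAA of GATA factors, and the GC box GGGCGG, which was added after the data were seen.
Ddc promoter, chr11:11790385-11790604, minus strand: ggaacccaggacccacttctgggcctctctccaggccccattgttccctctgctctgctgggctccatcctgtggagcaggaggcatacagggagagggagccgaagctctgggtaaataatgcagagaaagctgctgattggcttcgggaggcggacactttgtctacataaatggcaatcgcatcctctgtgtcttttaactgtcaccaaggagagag
Slc18a2 promoter, chr19:59335168-59335387, plus strand: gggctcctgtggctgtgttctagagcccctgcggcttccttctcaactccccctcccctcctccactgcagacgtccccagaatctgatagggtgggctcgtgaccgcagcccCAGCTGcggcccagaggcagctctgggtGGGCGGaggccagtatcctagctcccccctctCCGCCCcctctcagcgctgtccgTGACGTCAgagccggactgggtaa
Maoa promoter, chrX:16196624-16196843, plus strand: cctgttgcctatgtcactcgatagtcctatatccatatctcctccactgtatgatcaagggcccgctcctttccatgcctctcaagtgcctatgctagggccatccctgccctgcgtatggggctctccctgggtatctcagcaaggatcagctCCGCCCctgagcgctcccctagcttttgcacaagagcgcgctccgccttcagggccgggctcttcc
Qdpr promoter, chr5:45841455-45841674, minus strand: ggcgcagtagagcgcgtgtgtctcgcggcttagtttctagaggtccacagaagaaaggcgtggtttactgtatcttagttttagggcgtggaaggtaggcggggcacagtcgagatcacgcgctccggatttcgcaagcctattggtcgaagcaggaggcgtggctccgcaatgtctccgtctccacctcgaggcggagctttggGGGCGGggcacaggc

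The Slc18a2 promoter held the palindromic cAMP response element across its TSS, and none of the other 12 own-promoter regions of the members held it in their central 300 bp, against 1.66% of all 17884 promoter regions. The GC box was found in 5 of the 13 own-promoter regions, against 51.6%, and the GC box printed for Maoa lies outside the central 300 bp of its region. The E-box word was found in 4 of 13 (19.6% of promoter regions), and the ETS word in 1 of 13, that of Qdpr (10.5%). The NR4A word was found in 1, that of Pts (3.06%), the homeodomain word in 1, a non-coding start of Ddc (2.57%), and the PITX and OTX, FOXA and GATA words in 0 (4.89%, 2.42% and 5.47%). These matches describe the sequence and not binding.

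The regions open in DA only in introns of Ddc and Slc18a2 are shown by their central 240 bp, none of which overlaps an annotated exon, because each is the region of its gene with the highest lowest DA score in that class. Capitals mark the same words, and strands are those of the genes.
Ddc intron, chr11:11779211-11779450, minus strand: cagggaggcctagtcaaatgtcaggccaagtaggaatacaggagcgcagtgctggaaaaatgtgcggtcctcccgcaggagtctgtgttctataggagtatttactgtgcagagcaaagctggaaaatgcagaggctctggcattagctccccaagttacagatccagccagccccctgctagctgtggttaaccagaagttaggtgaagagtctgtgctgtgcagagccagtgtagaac
Slc18a2 intron, chr19:59341956-59342195, plus strand: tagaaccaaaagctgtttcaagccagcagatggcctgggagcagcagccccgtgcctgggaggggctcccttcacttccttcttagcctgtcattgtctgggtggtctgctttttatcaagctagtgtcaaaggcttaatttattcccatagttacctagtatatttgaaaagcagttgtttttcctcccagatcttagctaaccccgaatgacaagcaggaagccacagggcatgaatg

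These windows of Ddc and Slc18a2 held none of the words. Over the central 300 bp of the 7 distal member regions open in DA only, the FOXA word was in 1, the GATA word in 1, the E-box word in 1 and the GC box in 1, and the NR4A, PITX and OTX, homeodomain and ETS words and the cAMP response element were in 0. Among all distal regions open in DA only, the shares were 7.7%, 15.1%, 32.7% and 6.63% for the first 4 words and 8.73%, 14.0%, 11.9%, 1.74% and 0.256% for the others. With 7 regions, a word absent here says only that these letters are not in these windows.

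Other genes of the pathway that are reported here varied in promoter pattern. Tph2 and Slc18a1 had a promoter peak in all 5 libraries, and Th, Slc6a4 and Aldh1a1 had one in the 3 DA libraries only. Slc6a3, Pcbd1 and Gchfr had one in the 3 DA libraries and 5-HT 1, Aldh2 in the 3 DA libraries and 5-HT 2, and Dbh, Pnmt and Tph1 had no promoter region. The promoter of Slc18a1, the other vesicular monoamine transporter, scored 9.19, 11.5 and 11.7 in DA 1, DA 2 and DA 3 and 7.15 and 8.13 in 5-HT 1 and 5-HT 2, higher than that of Slc18a2 in each library. Across the 5 libraries, the promoters with percentiles most like those of Ddc were Nkd2, Zfp595 and Kcnh5, with a largest difference of 2.43, 2.46 and 2.71 percentile points. Those most like Slc18a2 were Rims3, Htr1a and Tcf20, with 3.47, 3.96 and 5.89.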

How the data were processed

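ATAC-seq was analysed in 3 DA and 2 5-HT libraries; RNA-seq was not analysed here. The authors used Trimmomatic for trimming, Bowtie2 for alignment (mm9), Picard to discard duplicates, MACS2 to call peaks in each library, and BEDOPS to join peaks under 100 bp apart; versions and the calling threshold are not given in the sources used here. They deposited 1 score per region and library, on an unnamed scale. Regions within 20 kb of the 8 gene bodies were classed by GENCODE M1. Presence of a score above 0, percentiles, exact permutation tests and limma 3.58.1 (R 4.3.3; Benjamini-Hochberg over all regions tested) were used, with Python 3.11.15, SciPy 1.17.1 and pysam 0.24.0; copies were searched with BLAST+ 2.17.0. On simulated data limma recovered the changed regions, but where some regions fell in DA, quantile normalisation gave more false calls than the nominal level, so its counts are descriptive. The members, the lists and the rule for named regions (all own promoters; per gene the distal region with the highest lowest score over all libraries, and over DA libraries among regions open in DA only; regions open in 5-HT only; limma calls) were chosen with earlier results of these data known. P-values measure the spread between separate sorts. Alternatives were another peak number, score minimum, merging, overlap, promoter and window size, normalisation, and leaving out each library. Some genes of the pathway list and some sequences are not reported here.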

Additional observations from a re-analysis of the deposited data

How the results depend on the processing

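The presence counts kept within 1.5 times their value when more of a region had to lie in the window, and with a wider promoter or a window of 10 kb. Merging regions under 100 bp apart left the counts unchanged. The authors had already joined such peaks, so merging does not test the counts. With a score minimum of 5, members with a promoter peak in all 5 libraries fell from 6 to 1 and distal regions in the 3 DA libraries from 13 to 7. At equal peak number the latter were 6, and those without a 5-HT peak 4. Leaving out each library gave 6 to 7 promoters, 13 to 23 distal DA regions, 7 to 14 without a 5-HT peak, 0 to 2 in 5-HT only, and a share without a 5-HT peak of 50.0% to 76.9%. The limma counts, 62 higher in DA and 115 higher in 5-HT, were not stable: 416 and 1298 with median centring, 11 and 9 on percentile ranks, and 2150 and 1378 over regions with a peak in at least 3 libraries, where 4 of 31 member regions were called, all higher in DA, against 4.23% of all regions tested. Each of these 4 lacked a peak in at least 1 5-HT library, and such a region enters through its DA values. Leaving out each library gave 0 to 1344 and 0 to 1427, with 0 to 2 member regions called; with 1 library left in 5-HT, its spread was assumed to be that of DA. With the sample number as a replicate block, 0 and 2 were called; deviations of same-numbered libraries correlated at -0.009 (number 1) and 0.026 (number 2), so the numbers were not taken to pair the samples. The cause of these changes was not tested. Read depth is unknown, the score has no named scale, and fewer peaks in 5-HT cannot be told apart from less opening. No exact test of 3 against 2 libraries can pass 0.05.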
